A study of Mus musculus with 22 samples.

Results

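The Zfp genes are described here as a family. They were chosen as every locus that the study's supplementary gene lists pair with a symbol beginning with Zfp, and those lists were used for names only. The rule found 28 loci among 1832 loci paired with any symbol and 66494 loci in all. Of the 28, 26 come from the study's list of loci with a changed translational efficiency (TE, the ribosome-bound level relative to total RNA), and 2 (Zfp652os and Zfp708) come from its list of loci changed in total RNA. Total RNA of sorted cells and ribosome-bound mRNA without rapamycin therefore took part in choosing the members, and in those comparisons the members are only described. Counts past a threshold there follow in part from the choice, and nothing is read from them. Only the 6 ribosome-bound libraries from animals given rapamycin played no part in the study's lists. The members were still chosen with earlier results of these data known.

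The study deleted Tsc1, an inhibitor of the kinase mTOR, in mouse cerebellar Purkinje cells (PCs). The labels give the strain background as C57BL/6 for every library, and the methods give C57BL/6J for the L7GFP and Rosa26fsTRAP lines without naming that of the Tsc1 and L7Cre animals crossed to them. Mutants (labelled CC) were Tsc1 fl/fl, with loxP sites around exons 17 and 18, and controls (labelled WW) were Tsc1+/+, with Cre driven by the L7 (Pcp2) promoter. For sorting, the methods name L7Cre/L7GFP animals of both genotypes, whose PCs carry GFP, although the description of the sort's gates lists the controls without L7Cre. For TRAP, the purification of tagged ribosomes, Rosa26fsTRAP animals expressed an EGFP-tagged RPL10A after Cre. Total RNA was sequenced in 5 control and 5 mutant libraries. TRAP RNA was sequenced in 4 groups of 3 libraries, control and mutant, each with or without rapamycin, an mTOR inhibitor. The labels give neither age nor rapamycin dose. The methods name P21 or P42 animals for sorting without tying either age to a library, so the sorted libraries may mix ages. The methods describe sorting and TRAP RNA per animal, while 2 of the sorted controls (144a and 144b) bear 1 animal number.

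Zfp is the mouse prefix for genes named for a zinc finger, a short loop in which cysteines and histidines hold a zinc ion. In the C2H2 class, tandem fingers read bases of DNA, or in some proteins bind RNA, and many members also carry a KRAB domain that recruits repressive chromatin enzymes to transposable elements. The KRAB members lie in clusters of recent duplicates, so that reads can be hard to assign to 1 gene.

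Of the 28 loci, 14 match a GENCODE transcript, 8 share a splice junction with one, 3 only overlap exons (Zfp184, Zfp275 and Zfp422-ps) and 3 lie on the strand opposite the named gene (Zfp78, Zfp113 and Zfp771). The assignment of the last 2 kinds to the named gene is uncertain. Zfp652os is an antisense noncoding RNA, Zfp422-ps an unprocessed pseudogene, and Zfp125 and Zfp783 are transcribed unprocessed pseudogenes. The other 24 genes encode between 1 (Zfp428 and Zfp704) and 21 (Zfp780b) C2H2 motifs, found as CxxC to CxxxxC, 12 residues, and HxxxH to HxxxxxH in the translated GENCODE coding sequence. The median was 9 motifs, and 12 genes had 10 or more. Chromosome 7 holds 9 of the 28 members (32.1%), against 96 of the 421 GENCODE genes with the Zfp prefix (22.8%), and chromosome 17 holds 4.

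Promoter sequences are shown for the members on which the results below turn, the 3 with non-overlapping TRAP groups under rapamycin that have an entry (Zfp275, Zfp526 and Zfp235) and the member whose total RNA differed most between mutants of different submissions (Zfp385c). The 250 bases before the RefSeq start (GRCm38.p6) are given 5′ to 3′ on the gene's strand, with GC boxes (GGGCGG, or CCGCCC on the other strand) in capitals. They lie at chrX:73342370-73342619 (plus strand), chr7:25221175-25221424 (plus), chr7:24132122-24132371 (plus) and chr11:100650694-100650943 (minus), and the last ends at the start of the transcript that the Zfp385c locus matches.
Zfp275: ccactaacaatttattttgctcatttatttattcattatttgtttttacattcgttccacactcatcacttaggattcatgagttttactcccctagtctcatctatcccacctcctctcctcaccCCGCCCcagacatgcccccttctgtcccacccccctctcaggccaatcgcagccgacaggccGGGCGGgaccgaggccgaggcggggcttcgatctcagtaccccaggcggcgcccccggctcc
Zfp526: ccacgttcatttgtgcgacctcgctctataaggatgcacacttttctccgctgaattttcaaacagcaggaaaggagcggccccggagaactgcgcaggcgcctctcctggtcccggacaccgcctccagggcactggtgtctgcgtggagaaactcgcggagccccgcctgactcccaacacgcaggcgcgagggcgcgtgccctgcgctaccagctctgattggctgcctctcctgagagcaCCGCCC
Zfp235: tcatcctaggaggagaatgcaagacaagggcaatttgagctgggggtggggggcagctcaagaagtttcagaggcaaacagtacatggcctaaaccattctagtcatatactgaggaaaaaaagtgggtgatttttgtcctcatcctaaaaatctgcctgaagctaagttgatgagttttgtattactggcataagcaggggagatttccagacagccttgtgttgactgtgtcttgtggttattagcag
Zfp385c: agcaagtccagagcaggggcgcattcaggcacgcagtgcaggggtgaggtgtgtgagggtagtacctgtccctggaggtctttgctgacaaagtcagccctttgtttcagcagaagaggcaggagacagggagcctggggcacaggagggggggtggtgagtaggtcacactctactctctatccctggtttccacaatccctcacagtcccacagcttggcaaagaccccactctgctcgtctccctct

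The Zfp275 window held 2 GC boxes and 13 CpG dinucleotides, and the Zfp526 window held 1 GC box and 21 CpG. The Zfp235 window held neither a GC box nor a CpG, and the Zfp385c window printed here held 3 CpG and no GC box. The Zfp235 window ends at chr7:24132371, ahead of the GENCODE gene start at chr7:24134169, so it may not be the promoter of the measured locus. Zfp385c has 2 further windows, of which the one at the far 5′ end of the gene (chr11:100692467-100692716) held 2 GC boxes and 10 CpG. Entries were found for 22 of the 28 genes, with 27 different windows. A GC box stood in 13 of them (48.1%), against 33.0% of all 32536 windows of this length, and the median number of CpG was 13 against 6. A match of these letters is a description of the window and not a binding site.

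The members were well covered in total RNA and thinly covered in TRAP. Values are estimated fragments divided by 1 size factor per library. In sorted PCs, with 43.3 to 86.3 M fragments per library, 23 of the 28 loci were above 0 in every library. In TRAP, with 2.47 to 6.38 M fragments, only 3 were (Zfp106, Zfp385c and Zfp523), and 22 had a median value under 10. Of the 336 TRAP values of members, 137 (40.8%) were 0 and 241 were under 10 fragments. Low fragment numbers limit the precision of every TRAP value below, and a 0 may be a failed estimate.

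**Figure D1:**
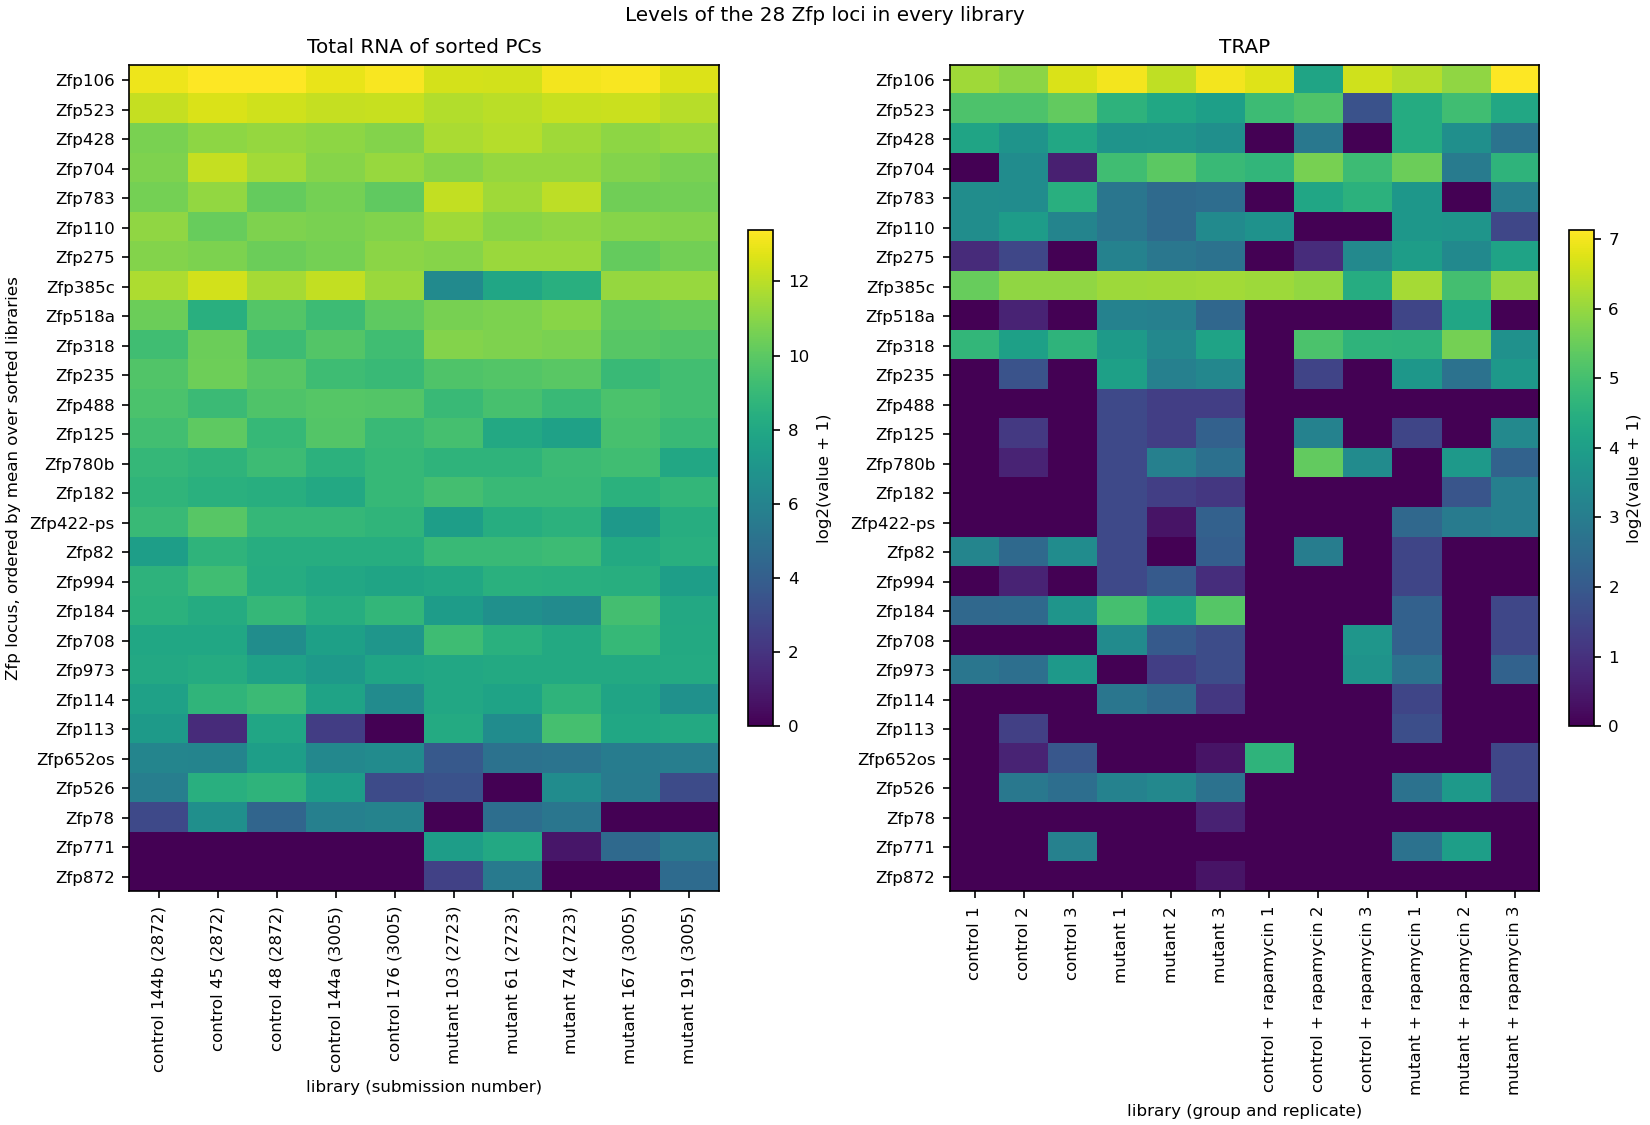
Levels of the 28 Zfp loci, as log2(value + 1) by colour, in each sorted library (left, with its submission number) and each TRAP library (right); rows are ordered by the mean over sorted libraries and the 2 colour scales differ. Zfp106 and Zfp523 were high in every sorted library, while 137 of the 336 TRAP values were 0.

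The highest members in sorted controls were Zfp106, Zfp523 and Zfp385c, and the same 3 were the highest in untreated TRAP controls. Zfp106, an RNA-binding protein needed by motor neurons, was at 7936, 8290.5, 9728, 10384 and 10636 in sorted controls (144a, 144b, 176, 45 and 48, the order used throughout) and at 5836, 9586, 6571, 5669.8 and 8967 in mutants (103, 167, 191, 61 and 74). TRAP values are given in the order of replicates 1, 2 and 3. Its TRAP values were 67.6, 58.6 and 104 in controls and 128, 85.3 and 126 in mutants, and with rapamycin 109, 16.8 and 97.1 in controls and 80.0, 59.8 and 138 in mutants. The genotypes overlapped in all of these.

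Zfp523, the mouse counterpart of the human transcription factor ZNF76, was at 4634, 4699, 4932, 6371 and 5495 in sorted controls and 3694, 5060.0, 3892, 4125 and 4824 in mutants, which overlap. Its TRAP values were 34.0, 33.9 and 41.8 in untreated controls and 23.5, 18.1 and 15.2 in untreated mutants. Every untreated mutant lay below every control, as for 6.81% of the loci tested. With rapamycin they were 28.7, 34.5 and 2.46 in controls and 19.9, 29.6 and 18.5 in mutants, which overlap. Per kilobase of exon, which allows levels of different genes to be compared (for 22 members, without the loci that only overlap exons or lie on the opposite strand), the order in sorted controls changed to Zfp428 at 1595 ± 245, Zfp385c at 1243 ± 396 and Zfp106 at 901 ± 117 (value per kilobase, SD, n = 5). The ranges of Zfp428 (1255 to 1879) and Zfp385c (849 to 1819) overlapped. In untreated TRAP controls Zfp385c stood first at 17.7 ± 3.23 and Zfp428 followed at 12.1 ± 2.60 (SD, n = 3).

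The first comparison asks whether TRAP levels of the members differed between genotypes in animals given rapamycin. Those libraries had no part in the lists that named the members. Among the members that passed the filter Zfp428 and Zfp275 had the largest positive differences, yet no member passed the thresholds. Of 8728 loci tested with limma (mean log2(value + 1) of at least 2), 107 passed the study's thresholds, a fold change above 2 at an unadjusted p below 0.01 (1.23%), and 1 had a Benjamini-Hochberg adjusted p under 0.05 (0.0115%). Of the 28 members, 10 passed the filter and 0 passed either threshold. An unadjusted limma p under 0.05 was found for 2 of them (Zfp428 and Zfp275), beside 480 of the 8728 loci. Without control 2 the number past the study's thresholds was 2 (beside 3.76% of all loci), without control 3 it was 1 (4.92%), and without the filter it was 3 of 25 (2.38%), against 1.23% in the comparison as given. On the estimated fragments, limma-voom also called 0 members. The 10 differences ran from -0.92 to 2.60 with a median of 0.60, and 7 of 10 were above 0, while the median of all loci tested was 0.32 and 63.0% were above 0. Zfp428, Zfp275 and Zfp110 reached the filter only through the mutants, with control means under 2, so that they had to differ upwards to be tested. The median, the count above 0 and the 2 members with p under 0.05 therefore do not support a shift of the members. With libraries scaled to equal totals, the median of all loci was -0.07 and that of the members 0.21, with 6 of 10 above 0.

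Zfp275, a C2H2 gene on the X chromosome (chrX:73342621-73359080, plus strand), was at 0, 0.884 and 9.23 in the 3 controls given rapamycin and at 14.5, 9.43 and 16.6 in the 3 mutants. All mutants were above all controls, by a narrow margin between 9.23 and 9.43. The mean log2(value + 1) was 1.42 ± 1.73 in controls and 3.82 ± 0.39 in mutants (SD, n = 3), a log2 difference of 2.40 (standard error 0.94, limma adjusted p = 0.869). These values rest on 0, 1 and 15 fragments in controls and 8, 7 and 9 in mutants, so that control 3, with the most fragments, is below the mutants only after scaling by size factors. Relative to library totals, control 3 instead stood above mutants 2 and 3, so the lack of overlap depends on the scaling.

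Zfp428 (chr7:24507006-24515682), which encodes a single C2H2 motif, was at 0, 6.19 and 0 in controls given rapamycin and at 19.9, 10.8 and 5.54 in mutants. The groups overlapped, since control 2 was above mutant 3. The log2 difference was 2.60 (standard error 0.96, limma adjusted p = 0.863). The sizes for Zfp428 and Zfp275 depend on the pseudocount: with 10 in place of 1 they were 0.86 and 0.87, and with 0.1 they were 4.75 and 3.77. With all 4 TRAP groups in one limma fit, which shares the spread across groups, both passed the study's thresholds, at the same log2 differences. That fit uses the untreated libraries for its spread and called 306 of the 8728 loci (3.51%), and both loci entered it only through their high mutant values.

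Zfp110, the neurotrophin receptor-interacting factor NRIF, was at 11.5, 0 and 0 in controls given rapamycin and at 12.7, 12.1 and 1.85 in mutants, which overlap, with a log2 difference of 1.78 (standard error 1.21, limma adjusted p = 0.873). At the other end of the range, the 3 negative differences were small against their error. Zfp780b, with 21 finger motifs, was at 0, 41.5 and 9.84 in controls and 0, 13.5 and 3.69 in mutants (log2 difference -0.92, standard error 1.59). Zfp704 was at 24.9, 49.9 and 28.3 in controls and 45.2, 6.74 and 24.0 in mutants (-0.70, standard error 0.80). The Zfp783 pseudogene was at 0, 17.7 and 22.8 in controls and 12.7, 0 and 7.38 in mutants (-0.65, standard error 1.54). The groups overlapped for all of these, and each of the 3 negative differences turned positive when 1 library was left out. The other 4 members that passed the filter (Zfp318, Zfp106, Zfp523 and Zfp385c) had log2 differences of 1.36, 0.61, 0.59 and 0.23.

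The remaining 18 members were below the filter with rapamycin and were not tested. Over all 28 members, 4 had every mutant given rapamycin above every control (Zfp275, Zfp235, Zfp422-ps and Zfp526) and 0 had every mutant below. Of the 28, 25 were above 0 in any of these 6 libraries, and of all 19657 such loci 5.92% had every mutant higher and 2.1% every mutant lower. Among the 10 members tested the counts were 1 and 0, beside 7.37% and 4.4% of all loci tested. Zfp235, Zfp422-ps and Zfp526 were singled out after their values were seen. Zfp235 (chr7:24134169-24143241), whose locus matches a retained-intron transcript, was at 0, 1.77 and 0 in controls given rapamycin and at 12.7, 5.39 and 12.9 in mutants. The Zfp422-ps pseudogene was listed at 0 in the 3 controls and was at 4.31, 6.74 and 7.38 in the mutants. Zfp526 was listed at 0 in the 3 controls and was at 5.43, 13.5 and 1.85 in the mutants. The mutant values of these 3 loci rest on 1 to 10 fragments each.

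More of the members were at 0 in controls than in mutants. With rapamycin, 56 of 84 member values were 0 in controls (66.7%) and 28 of 84 in mutants (33.3%). Without rapamycin, the numbers were 39 of 84 (46.4%) and 14 of 84 (16.7%). Over all loci, 7945, 9926 and 10366 were above 0 in the controls given rapamycin and 14277, 11153 and 12951 in the mutants, although the controls had more fragments (4.28 to 4.89 M against 2.47 to 3.37 M). Without rapamycin, 11659, 14440 and 12041 were above 0 in controls and 12713, 14093 and 19694 in mutants, so that the number of detected loci separated the genotypes with rapamycin but overlapped without it. Its part in the members' differences was not tested.

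Markers of other cell types were also measured in TRAP. With rapamycin, 2 of the 10 markers listed (Aldoc and Tnc) were higher in every mutant and 0 lower. Aldoc (zebrin II) is also expressed by Purkinje cells themselves and so does not mark another cell type here. The other 3 astroglial markers (Gfap, Apoe and Tnc) summed to 49.5 to 117 in controls and 54.3 to 155 in mutants, which overlap, while Aldoc alone was at 825 to 1309 and 1512 to 2124. The 3 microglial markers summed to 0 to 46.8 and 1.81 to 12.6. The 10 Purkinje markers summed to 8839 to 10180 in controls and 9902 to 11173 in mutants, which overlap. The part of these markers in the members' values was not tested.

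**Figure D2:**
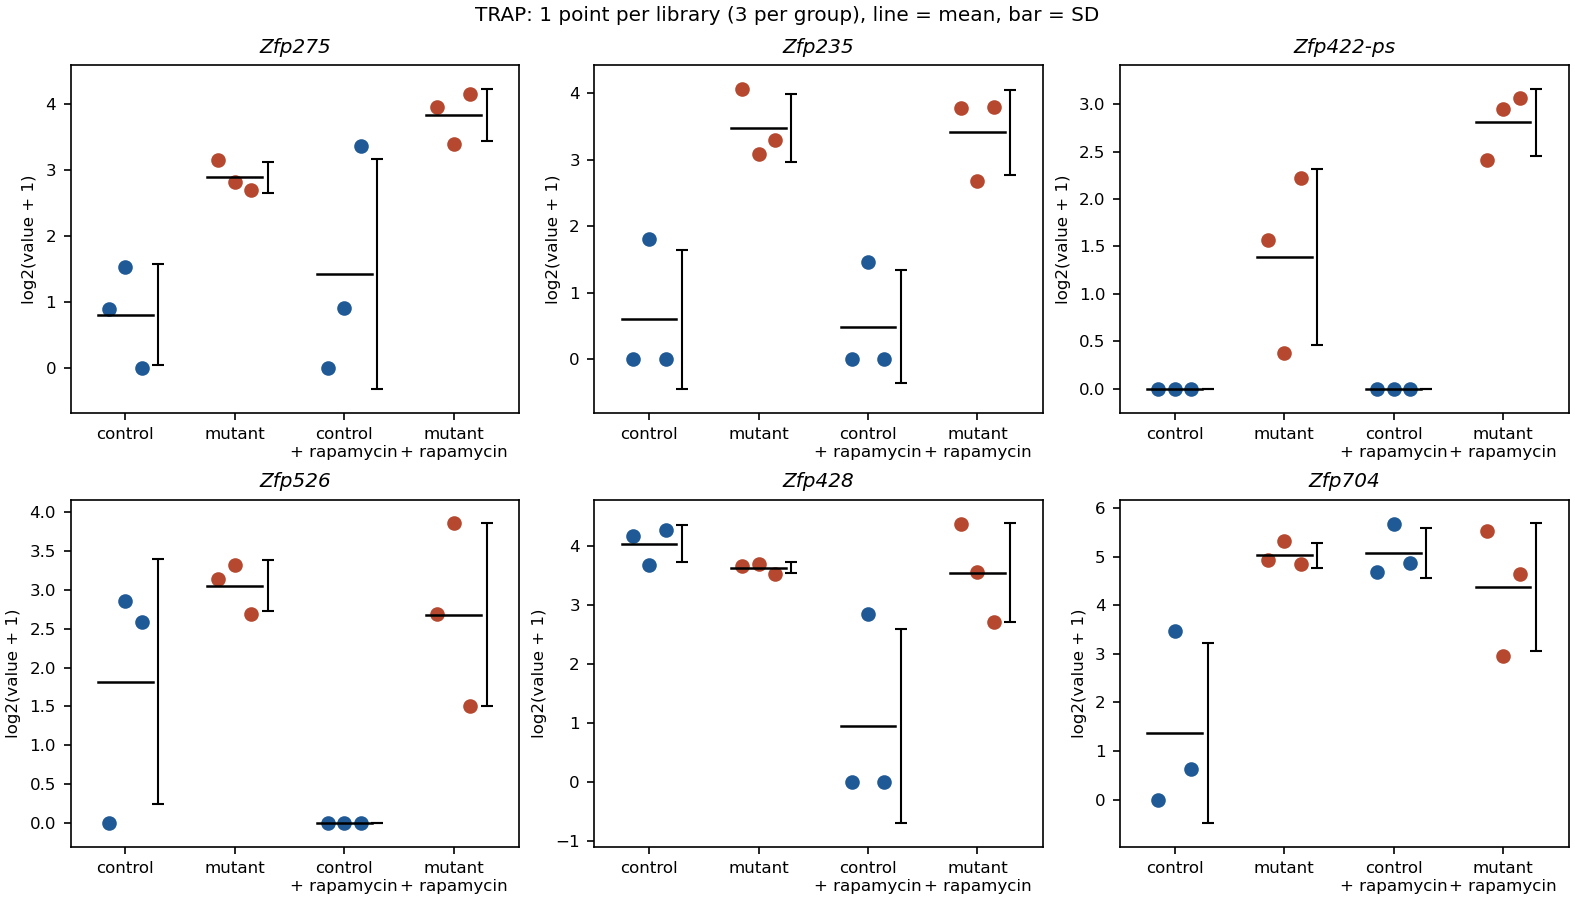
TRAP levels of 6 Zfp loci as log2(value + 1) on the vertical axis in the 4 groups (blue controls, red mutants, 1 point per library, black line the mean, bar the SD, n = 3). Zfp275, Zfp235 and Zfp422-ps had every mutant above every control without and with rapamycin, Zfp526 only with rapamycin, and Zfp704 only without it. Every mutant was higher for 8.55% of the loci tested without rapamycin and 7.37% with it, and the share for both was not computed. Zfp235, Zfp422-ps and Zfp526 were singled out after their values were seen. Zfp275 and Zfp422-ps were below the filter without rapamycin.

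In untreated TRAP the members' values took part in their selection, and they are given as a description. Of 13 members that passed the filter, 4 were past the thresholds that 1.96% of the 9658 loci passed, a count that the choice of members raises. Of the 4, Zfp704, Zfp235 and Zfp973 passed the filter only through the group where they are high. It was 0 without mutant 1, 1 without mutant 2 or mutant 3, and 2 without control 2. Zfp704, a C2H2 factor also known as glucocorticoid-induced gene 1 (chr3:9427020-9610085), was at 0, 10.1 and 0.557 in controls and 29.4, 39.0 and 27.7 in mutants, a log2 difference of 3.66. Zfp235 was at 0, 2.51 and 0 in controls and 15.7, 7.53 and 8.80 in mutants (2.88). Zfp184, a KRAB gene on chromosome 13, was at 4.26, 4.39 and 12.2 in controls and 31.4, 18.1 and 36.7 in mutants (1.99). These 3 were higher in every mutant, as were 8.55% of the loci tested.

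Zfp973 was the only one of the 4 that was lower in mutants. It was at 5.96, 5.02 and 13.4 in controls and 0, 1.51 and 2.12 in mutants (log2 difference -2.09), lower in every mutant as were 6.81% of the loci tested. Zfp275, below the filter here, was at 0.851, 1.88 and 0 in controls and 7.85, 6.02 and 5.46 in mutants. Every mutant was higher, beside 8.55% of the loci tested. Zfp422-ps was listed at 0 in the 3 controls and was at 1.96, 0.301 and 3.66 in the mutants.

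Untreated mutant 3 stood apart from the other untreated mutants. Its values summed to 860843 against 5261125 and 5142314, its 10 highest loci held 40.5% of the total against 70.8% and 68.1%, and 1 fragment was worth 0.303 against 1.96 and 1.51. Of the same 10 markers, 8 (Aldoc included) were higher in every untreated mutant, among them the astroglial Gfap (log2 difference 2.71) and Apoe (1.92) and the microglial Csf1r (2.24), while the astroglial Tnc was lower (-2.27) and Tfap2b overlapped. The astroglial markers other than Aldoc summed to 60.7 to 162 in controls and 358 to 488 in mutants, and the microglial ones to 0 to 5.11 and 17.8 to 31.4. The single oligodendrocyte and endothelial markers (Opalin and Flt1) were at most 1.25 and 0 in controls and at most 3.92 and 7.53 in mutants. The 10 Purkinje markers summed to 11230 to 12913 in controls and 9204 to 10427 in mutants, lower in every mutant. As shares of the library they overlapped, at 0.310% to 0.360% and 0.190% to 1.07%. Of the 10, 3 were lower in every mutant, as were 6.81% of the loci tested. The part of these in the members' values was not tested.

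The genotype differences without and with rapamycin share no library and can be set side by side. Among the 8 members that passed both filters, 3 had the same sign (37.5%), against 53.9% of 8285 loci. Without the filter the order turned, with 15 of 25 members (60%) against 54.8% of 16731 loci, so that nothing can be read from the share. Zfp106 and Zfp385c were higher and Zfp783 was lower in mutants in both. Zfp704 went from higher to lower, and Zfp428, Zfp110, Zfp318 and Zfp523 from lower to higher.

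**Figure D3:**
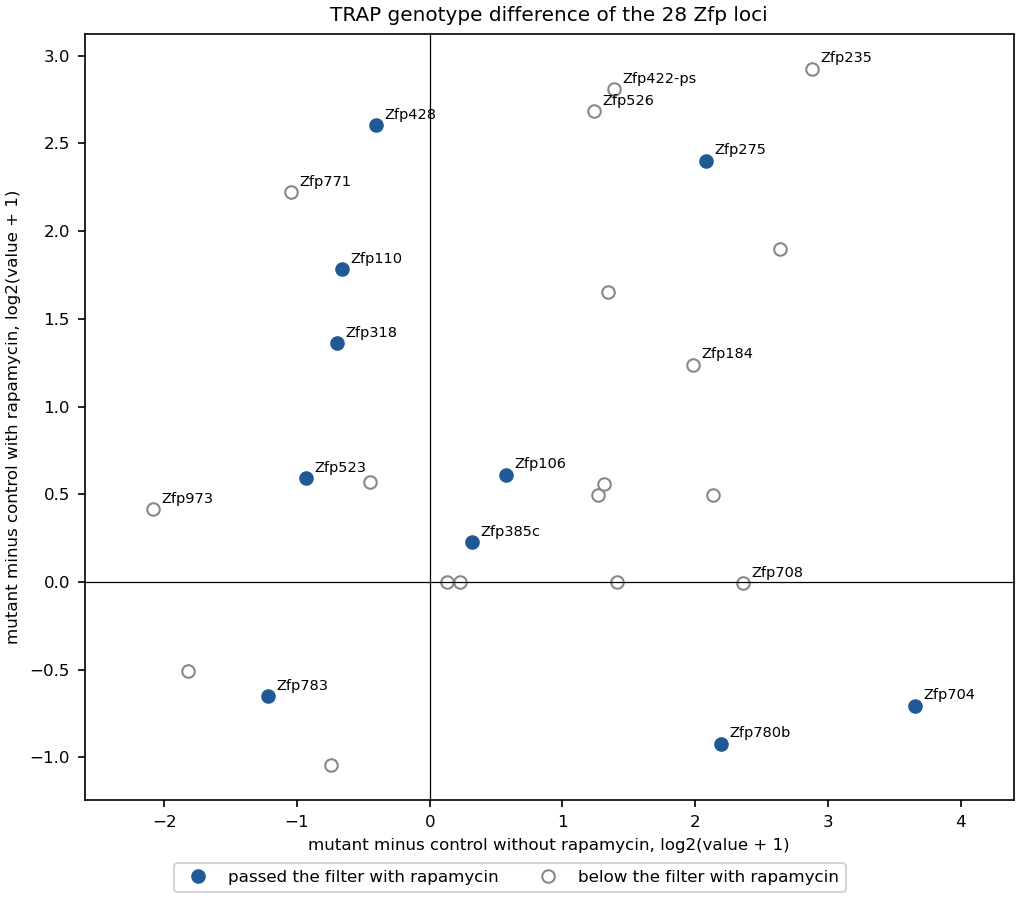
Genotype difference (mutant minus control, on the log2(value + 1) scale) in TRAP without rapamycin (horizontal) and with it (vertical) for the 28 Zfp loci, filled where the locus passed the filter with rapamycin. Zfp235 and Zfp275 lie at the upper right, and Zfp704 had the largest difference without rapamycin (3.66) and -0.70 with it.

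The rapamycin comparisons share the untreated libraries with the choice of members and are also described only. In controls, 10 members passed the filter and 1 was past the thresholds, beside 1.05% of 8682 loci. It was Zfp704, whose values went from 0, 10.1 and 0.557 to 24.9, 49.9 and 28.3, a log2 difference of 3.71. The count fell to 0 without untreated control 1 or 3 or treated control 3, with the intensity trend, with a pseudocount of 0.1 and with the stricter filter. Of the 10 markers of other cell types, Aldoc included, 2 were lower and 0 higher in every treated control. The 10 Purkinje markers summed to 11230 to 12913 without and 8839 to 10180 with rapamycin. As shares of the library they overlapped (0.310% to 0.360% and 0.210% to 0.338%). The part of these in the members' values in controls was not tested. The median over the 10 members was -1.25 and 1 was above 0, while the median of all loci tested was -0.31 and 37.9% were above 0. Zfp428, Zfp110, Zfp82 and Zfp973 passed the filter only through the untreated controls and Zfp704 only through the treated ones, so that the median and the count support nothing about the members. Zfp428 moved from 17.0, 11.9 and 18.4 to 0, 6.19 and 0 (log2 difference -3.10). It was lower in every treated control, as were 7.18% of the loci tested.

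In mutants, 15 members passed the filter and 1 was past the thresholds, beside 1.75% of 9664 loci. It was Zfp184, at 31.4, 18.1 and 36.7 without and 3.62, 0 and 1.85 with rapamycin, a log2 difference of -3.60. It passed the filter only through the untreated libraries, and the count fell to 0 with a pseudocount of 0.1 and with the stricter filter. In the controls Zfp184 was listed at 0 in the 3 libraries given rapamycin. Of the same 10 markers, Aldoc included, 7 were lower and 1 higher in every mutant given rapamycin than in the untreated mutants, and their part in the Zfp184 values was not tested. Zfp275 and Zfp422-ps had no overlap in the other direction, with differences of 0.94 and 1.42, as had 7.41% of the loci tested. Zfp422-ps passed this filter only through the treated libraries. In the fit of the interaction of genotype and rapamycin, 10 members passed the filter and 1 was past the thresholds, beside 1.91% of 9174 loci. It was again Zfp704 at -4.36, with mean log2(value + 1) of 1.37 in untreated controls, 5.03 in untreated mutants, and 5.08 and 4.38 in controls and mutants given rapamycin. The count fell to 0 without untreated control 1 or 3, untreated mutant 1 or 2, or treated mutant 2, with a pseudocount of 0.1 and with the stricter filter, and was 3 without treated control 1.

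In total RNA of sorted PCs, the genotypes differed by less than 1 on the log2(value + 1) scale for 19 of the 28 members. Of 25 members that passed the filter (mean of at least 5), 3 were past the thresholds, beside 1.47% of 16455 loci, and 2 of these 3 had been listed by that same comparison. The 3 became 1 with submission as a term, 0 within submission MS3005, 1 with 144a and 144b averaged, 0 without control 144a and 1 without control 176, control 48, mutant 103 or mutant 61. Zfp708, a KRAB gene on chromosome 13 that binds retrotransposon sequence, was at 190.4, 249, 129, 251 and 94.8 in controls and 594, 497, 273, 360.4 and 281 in mutants, a log2 difference of 1.16. All mutants were above all controls, as for 0.766% of the loci tested. The antisense RNA Zfp652os was at 74.4, 67.9, 86.7, 64.6 and 177 in controls and 12.2, 48.4, 51.1, 31.8 and 34.9 in mutants (-1.41), and Zfp422-ps was at 472, 535, 432, 952 and 487 in controls and 178, 146, 326, 323 and 391 in mutants (-1.11). Both were lower in every mutant, as were 1.39% of the loci tested. As these are bulk samples, fewer cells of a type and less RNA per cell cannot be told apart.

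The 6 members named above for their differences with rapamycin were well covered in total RNA of the sorted libraries. Those libraries also held markers of other cell types, so these levels cannot be assigned to PCs alone. Zfp275 was at 1534, 1921, 2134, 1708 and 1304 in sorted controls and 1944, 1194, 1453, 2629 and 2622 in mutants. Zfp428 was at 2239.9, 1642, 1892, 2202 and 2458 in controls and 3309, 2180.3, 2516, 3812 and 2852 in mutants. Zfp110 was at 1633, 2273, 1841, 1218 and 1762 in controls and 2866, 1993, 1927, 2033 and 2273 in mutants. The genotypes overlapped for these 3.

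Zfp780b was at 380.0, 484, 499, 415 and 569 in sorted controls and 417, 615, 259, 415 and 551 in mutants. Zfp704 was at 1975, 1768, 2528, 4755 and 2992 in controls and 1945, 1871, 1667, 2488 and 2430.1 in mutants. Zfp783 was at 1534, 1518, 1089, 2380.2 and 1168 in controls and 4465, 1414, 1476, 2868 and 4179 in mutants, where mutants 103, 61 and 74 were the highest. These 3 overlapped as well.

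In untreated TRAP, where the choice of members used the values, Zfp428 was at 17.0, 11.9 and 18.4 in controls and 11.8, 12.05 and 10.6 in mutants, which overlap. Zfp110 was at 10.2, 14.4 and 8.35 in controls and 5.89, 4.52 and 9.71 in mutants, which also overlap. Zfp780b was at 0, 0.627 and 0 in controls and 1.96, 7.53 and 5.16 in mutants, every mutant higher, beside 8.55% of the loci tested. Zfp783 was at 10.2, 10.04 and 21.7 in controls and 5.89, 4.52 and 4.85 in mutants, every mutant lower, as were 6.81% of the loci tested.

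The TRAP values of the 2 loci listed from total RNA were low. Zfp708 was listed at 0 in the 3 untreated controls and was at 9.81, 3.01 and 2.12 in mutants, and with rapamycin it was at 0, 0 and 12.3 in controls and 3.62, 0 and 1.85 in mutants. Zfp652os was at 0, 0.627 and 2.78 in untreated controls and 0, 0 and 0.303 in mutants, and with rapamycin at 23.9, 0 and 0 in controls and 0, 0 and 1.85 in mutants. Neither passed the TRAP filter in either genotype comparison.

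The submissions of the sorted libraries are uneven. Mutants 61, 74 and 103 came from submission MS2723, controls 45, 48 and 144b from MS2872, and only submission MS3005 holds both genotypes (mutants 167 and 191, controls 144a and 176). Zfp385c, a relative of the p53-regulated Zfp385a, had the largest difference between the mutants of the 2 submissions, while the opposite-strand locus Zfp113 had the largest between the controls of MS2872 and MS3005 (4.39, and 0.16 for Zfp385c). It was at 84.5, 242 and 350.3 in the mutants of submission MS2723 and at 2415 and 2567 in the mutants of MS3005, while the controls were at 4561, 3403, 2632, 5639 and 3044. Over all libraries its log2 difference was -2.78, but within submission MS3005 it was -0.48, and between the mutants of the 2 submissions it was -3.68. The sum of the 10 Purkinje markers split along the same libraries, at 0.0825%, 0.112% and 0.176% of the library in mutants 103, 61 and 74 against 0.533% and 0.524% in mutants 167 and 191, and its part in the Zfp385c values was not tested. In TRAP it was at 43.4, 60.8 and 60.7 in untreated controls and 66.7, 67.8 and 69.8 in mutants, and with rapamycin at 67.0, 61.9 and 20.3 in controls and 70.6, 31.0 and 62.8 in mutants.

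For 19 of the 28 members the mutants of submissions MS2723 and MS3005 differed by more than the genotypes did within MS3005. The sign of the total RNA difference was kept within MS3005 for 22 of 28. Of 9 members with a log2 difference beyond 1 in either direction over all libraries, 6 kept one beyond 1 in the same direction there. The libraries of MS3005 are themselves part of the difference over all libraries, so agreement is partly built in. The members were also chosen in part on total RNA, and no share over all loci was computed for these counts. Nothing is read from them. Within MS3005 the log2 difference was 1.23 for Zfp708 and -1.05 for Zfp422-ps, but -0.68 for Zfp652os. Submission and genotype cannot be told apart for the other 6 libraries. The 10 Purkinje markers, some of which the study chose on these libraries, summed to 0.545% to 0.958% of a library in sorted controls and 0.0825% to 0.533% in mutants. The astroglial markers, Aldoc included, summed to 0.466% to 0.922% in sorted controls and 0.698% to 0.922% in mutants. The microglial markers summed to 0.0152% to 0.0725% and 0.0186% to 0.0464%. The part of these markers in the Zfp values was not tested.

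**Figure D4:**
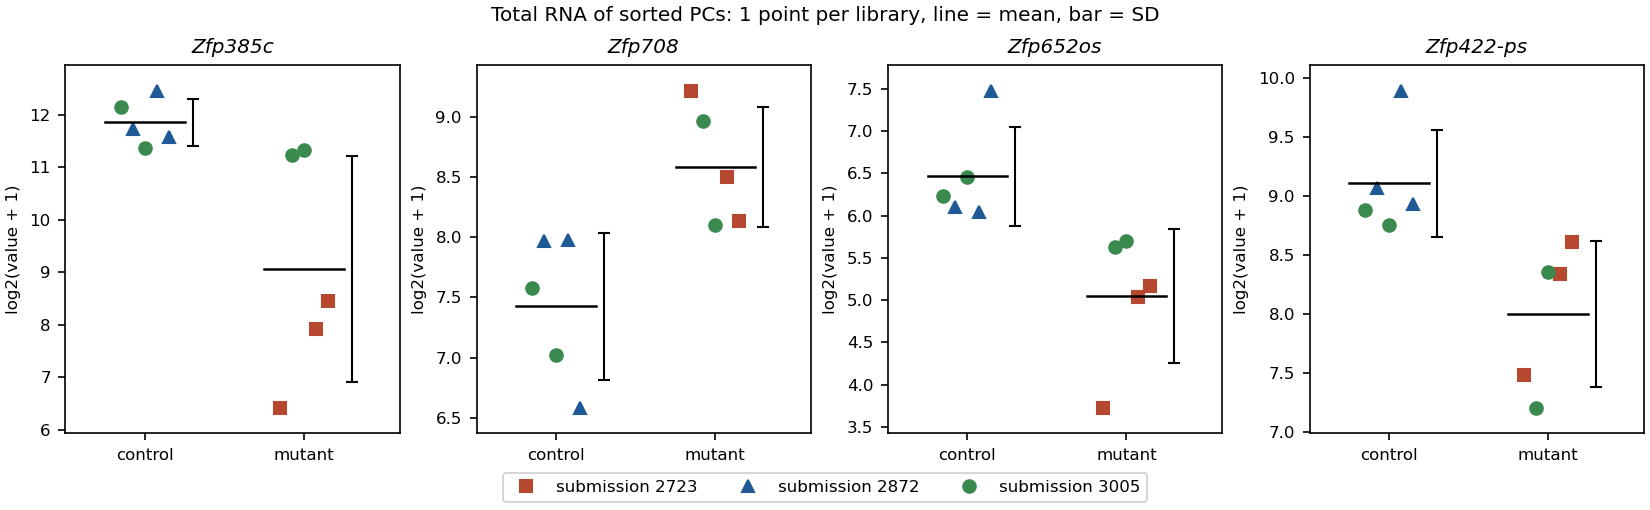
Total RNA levels of 4 Zfp loci in sorted PCs as log2(value + 1) on the vertical axis (5 libraries per genotype, symbols and colours by submission, black line the mean, bar the SD). For Zfp385c the 3 mutants of submission MS2723 lie far below the 2 mutants of MS3005, and Zfp708 was higher in every mutant.

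The change in TE (ΔTE), the TRAP genotype difference minus the total RNA difference, is the quantity that chose 26 of the members and is given as a description. It was above 0 for 18 and below 0 for 10, from -6.31 to 4.22 with a median of 1.35. The TRAP difference was the larger of its 2 parts for 19 members and the total RNA difference for 9. Zfp526 had the highest ΔTE (4.22), from a total RNA difference of -2.98 and a TRAP difference of 1.24. Its sorted values were 171, 52.1, 7.38, 344 and 419 in controls and 9.17, 46.3, 7.30, 0 and 90.1 in mutants, which overlap widely. Zfp704 followed at 4.01, with a total RNA difference of only -0.36.

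The 3 loci on the strand opposite a Zfp gene were the only members with a total RNA difference beyond 3 in either direction, at 5.26 (Zfp771), 4.18 (Zfp113) and -3.13 (Zfp78). Zfp771 (ΔTE -6.31) was listed at 0 in the 5 sorted controls and was at 173, 22.8, 41.5, 266 and 0.759 in mutants. Zfp113 (-4.63) was at 4.45, 156, 0, 2.08 and 239 in sorted controls and 290.0, 253, 274, 88.3 and 679.6 in mutants. Zfp78 (3.36) was at 55.3, 6.62, 62.0, 100.2 and 19.8 in controls and 0.0248, 0, 0, 27.4 and 36.8 in mutants. The last 2 overlapped between genotypes. In untreated TRAP these loci were above 0 in only 1 library each, Zfp771 at 7.79 in control 3, Zfp113 at 1.57 in control 2 and Zfp78 at 0.610 in mutant 3, and the total RNA difference was the larger part of ΔTE in each. With rapamycin, Zfp771 was at 5.43 and 14.8 in mutants 1 and 2, Zfp113 at 2.26 in mutant 1, and each was listed at 0 in the other libraries, as was Zfp78 in all 6.

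**Figure D5:**
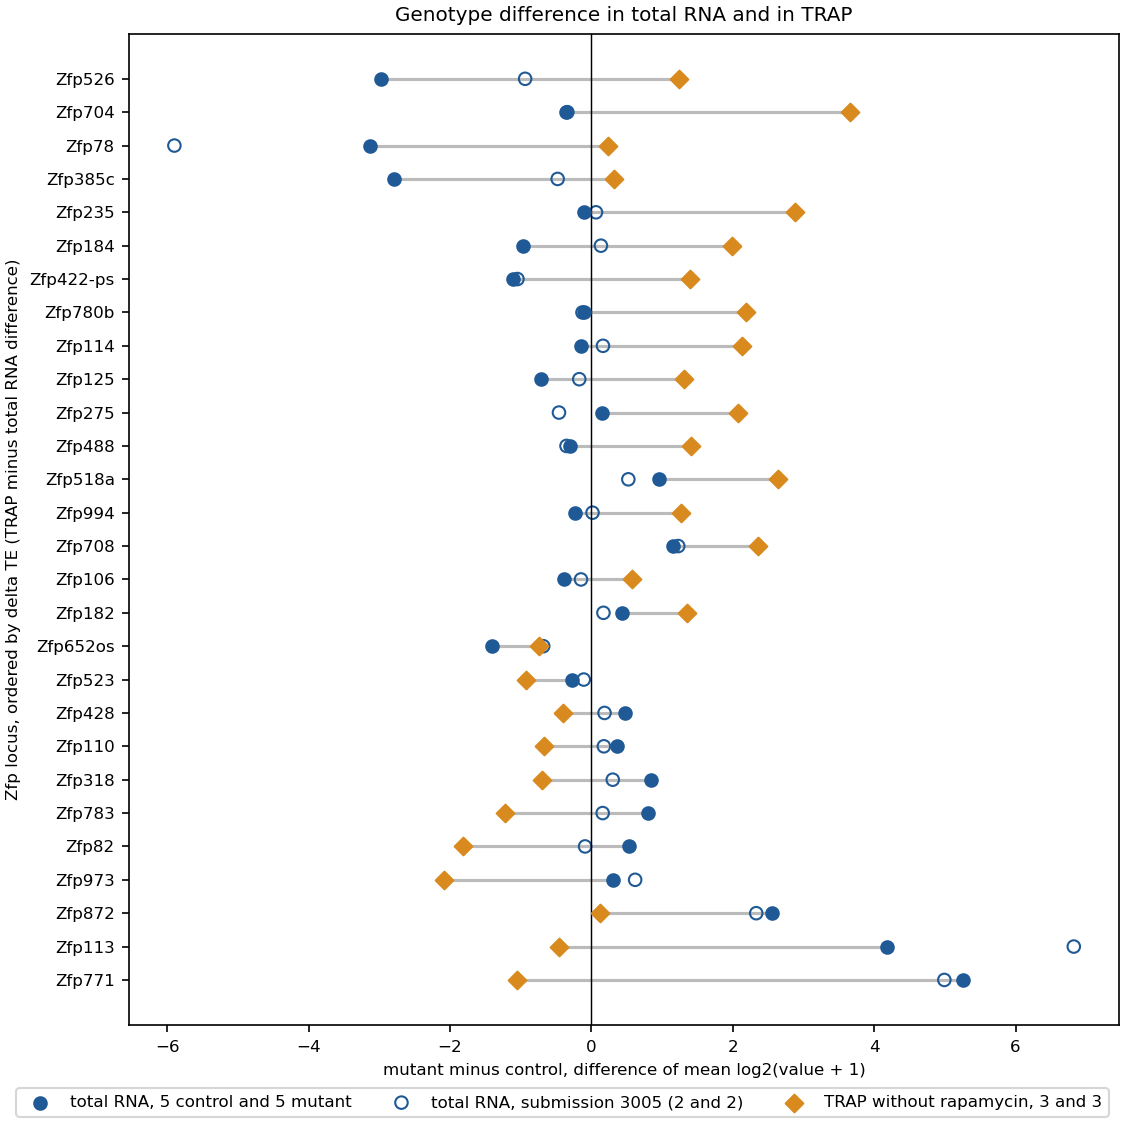
Difference between genotypes (mutant minus control, mean log2(value + 1)) for each of the 28 Zfp loci, in total RNA over all libraries (filled circles) and within submission MS3005 (open circles), and in untreated TRAP (diamonds), ordered by ΔTE. The TRAP difference was the larger part for 19 loci.

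Another 2 lists place the family among related genes. The 11 other zinc finger regulators with a named locus (Zbtb46, Zbtb48, Zkscan7, Zscan20, Ikzf1, Plagl1, Prdm4, Klf3, Klf4, Klf9 and Ctcf) come from the same supplementary lists, so their untreated values are also a description. In total RNA 10 passed the filter and 2 were past the thresholds, beside 1.47% of all loci, both lower in mutants (Ikzf1, a lymphoid and myeloid regulator, at -1.43 and Zbtb46, a dendritic cell factor, at -1.21). In untreated TRAP 6 passed and 3 were past them, beside 1.96% of all loci, Plagl1 at 1.77 and Prdm4 at 1.47 higher and Zbtb48, a telomere-binding protein, at -2.40 lower. With rapamycin 4 passed the filter and limma called 0, with 0 at an unadjusted p under 0.05.

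Of the chromatin partners of zinc finger repressors, 5 were listed here. They are Chd3, Mbd3 and Gatad2a of the NuRD remodelling complex, the co-repressor Ctbp1 and the histone methyltransferase Suv39h1. They were taken from the loci that the supplementary lists name and are not a full set of such partners. All were measured in every comparison. With rapamycin limma called 0 of 5, with 0 at an unadjusted p under 0.05, and the differences ran from -0.85 (Ctbp1) to 0.57 (Chd3). Of the 5, 1 was above 0 there, beside 63.0% of all loci, and 2 were lower in every mutant, as were 4.4% of all loci. In total RNA all 5 were below 0, from -0.69 for Chd3 to -0.14 for Suv39h1, while 52.6% of all loci were above 0. None of the 5 was past the thresholds. Chd3 was lower in every mutant there, as were 1.39% of all loci. In untreated TRAP 4 of 5 were above 0, beside 54.6% of all loci, and 3 (Suv39h1 at 1.71, Mbd3 at 0.61 and Gatad2a at 0.31) were higher in every mutant, as were 8.55% of all loci. With rapamycin in controls all 5 were above 0, beside 37.9% of all loci, from 0.19 (Gatad2a) to 2.29 (Suv39h1), and in mutants 1 of 5 was, beside 47.0%. None was past the thresholds in any of these.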

How the data were processed

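Paired-end reads were trimmed (Trimmomatic 0.39), mapped to GRCm38 (STAR 2.7.0f) and quantified on an assembled transcriptome (Cufflinks 2.2.1). The methods name these tools without their versions. The unit of the values the authors deposited is a signal, an estimated fragment count divided by 1 size factor per library, with sorted and TRAP tables scaled separately. In each library the most frequent low value was taken as the value of 1 fragment. Of the values, 61.7% to 72.5% (sorted) and 84.3% to 95.0% (TRAP) were whole multiples of it, within 0.01, so they were not treated as counts. Values below 0.01 were set to 0.

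From these, log2(value + 1) was computed, and loci whose mean reached 5 in sorted PCs or 2 in TRAP were compared with lmFit and eBayes of limma 3.58.1 (R 4.3.3), only the groups compared entering each fit. The thresholds were those of the study's methods (fold change above 2, unadjusted p below 0.01), with Benjamini-Hochberg adjustment over all loci of a fit beside them. Fold changes on this scale understate changes of low loci. The scripts were tested on simulated data. As alternatives, equal totals or quantile scaling, a pseudocount of 10 or 0.1, no or a stricter filter, an intensity trend, limma-voom, submission as a term or only submission MS3005, 144a and 144b averaged, a replicate block, all TRAP groups in one fit, and leaving out each library were tried.

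Names came only from the supplementary lists, gene positions from GENCODE M21 and promoters from RefSeq. Tsc1 was not analysed here, so the genotype labels were not checked on it. Among the members that passed the filter with rapamycin, values in every library are given for the 3 largest positive and 3 largest negative differences. They are also given for the 3 highest members in sorted and in TRAP controls, the 2 members listed from total RNA and the 3 opposite-strand loci. Members and lists were chosen with earlier results of these data known. Figures were drawn with matplotlib 3.10.9.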

Additional observations from a re-analysis of the deposited data

Results flagged for a closer look

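In 54 sets of 5 sorted values of a member, 2 had a library set far apart from the other 4, and chance gives about 1 such set in 20. Zfp422-ps was at 9.90 (log2(value + 1)) in control 45, against 8.76 to 9.07 in the other controls. Zfp652os was at 7.48 in control 48, against 6.04 to 6.45. Both controls belong to submission MS2872, and in both cases the high library lay on the side that widens the difference from the mutants.

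The TRAP genotype difference of Zfp704 was 3.66 without and -0.70 with rapamycin, a change of -4.36 that was past the study's thresholds in the interaction fit. That fit called 0 members when any of 5 libraries was left out (untreated control 1 or 3, untreated mutant 1 or 2, or treated mutant 2), with a pseudocount of 0.1 and with the stricter filter. Zfp704 was chosen with the untreated libraries, so this value is a description and not independent of the choice.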

How the results depend on the processing

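Low fragment numbers limit the precision of TRAP values. No member with rapamycin reached an adjusted limma p under 0.05 under any alternative, and counts at the unadjusted threshold changed with the filter. For each setting that moved a count, the cause was not tested unless the setting itself uses fewer libraries or loci. In total RNA the 3 members called became 1 with submission as a term, 0 within submission MS3005 and 1 with 144a and 144b averaged, and 0 to 4 with 1 library left out (0 without control 144a, and 1 without control 176, control 48, mutant 103 or mutant 61). In untreated TRAP the 4 became 2 with equal totals, with pseudocounts of 10 and 0.1 and with limma-voom, 11 without the filter and 0 with the stricter one, and 0 to 3 with 1 library left out (0 without mutant 1, 1 without mutant 2 or 3, 2 without control 2). With rapamycin the 0 became 3 without the filter and 2 with the 4 TRAP groups fitted together, and 0 to 2 with 1 library left out (2 without control 2, 1 without control 3).

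For rapamycin in controls the 1 became 2 with quantile normalization, without the filter and with the 4 TRAP groups fitted together, 0 with a pseudocount of 0.1, the stricter filter and the intensity trend, and 0 to 1 with 1 library left out (0 without untreated control 1 or 3, or treated control 3). For rapamycin in mutants it became 0 with a pseudocount of 0.1 and with the stricter filter, 2 without the filter, and 1 to 2 with 1 library left out (2 without treated mutant 2). For the interaction it became 0 with a pseudocount of 0.1 and with the stricter filter, 2 without the filter, and 0 to 3 with 1 library left out (3 without treated control 1, 0 without untreated control 1 or 3, untreated mutant 1 or 2, or treated mutant 2). The members of the same sign without and with rapamycin were 15 of 25 rather than 3 of 8 without the filter, and 3 to 5 with 1 library left out (5 without treated control 1). With rapamycin, Zfp783 turned to 0.17 without control 3 and 0.49 without mutant 2 (range -2.12 to 0.49 with 1 library left out), Zfp780b to 0.093 without mutant 1 and 0.31 without control 2 (range -2.40 to 0.31), and Zfp704 to 0.0076 without mutant 2 (range -1.28 to 0.0076). The ranges were 2.13 to 3.55 for Zfp428, 1.69 to 3.37 for Zfp275 and 1.18 to 2.999 for Zfp110. These ranges cover all 6 libraries, and where a locus fell below the filter without a library (2 of 6 for Zfp428, 3 for Zfp110 and 1 for Zfp780b) the value has no test. TRAP libraries of the same replicate number were not treated as pairs, although correlations over 3 libraries per group cannot exclude a pairing. Between genotypes, correlations of same-numbered deviations ran from -0.04 to -0.03 with rapamycin and from 0.003 to 0.048 without it. Without rapamycin, replicates 1 and 3 correlated best with their own number and replicate 2 did not, and with rapamycin no replicate did. A block for the replicate numbers gave 5 members in untreated TRAP, 0 with rapamycin and 1 in each of the other TRAP comparisons.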
